A study of Mus musculus with 4 samples.

Results

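Matrix-binding integrin genes of the vessel wall were examined by cell class and day in carotid arteries of mice, from RNA sequencing of single cells. The 10 genes were fixed by name: Itga1, Itga5, Itga7, Itga8, Itga11, Itgav, Itgb1, Itgb3, Itgb5 and Itgbl1, out of all genes that the count tables list, of which 20506 had a UMI. All 10 were listed and all 10 had UMIs (unique molecular identifiers, 1 per captured transcript). Each of the 4 libraries came from carotid arteries of C57BL/6 mice, male per the study's methods and 11 weeks old before injury. Day 0 was taken before wire injury, and the other libraries were taken 3, 7 and 14 days after it. A wire passed through the artery strips its endothelium. Per the study, the deep form of injury used here also breaks the internal elastic lamina. Vessels of several mice were pooled for each library and thrombosed vessels were left out per the methods, so the animals cannot be told apart. With 1 library per day no test between days was possible. Every interval below is a 95% interval for counting error only, and a difference between days cannot be told apart from a difference between libraries.

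Integrins are cell surface receptors made of an α and a β subunit, and the pair decides which matrix protein is bound. Outside the cell they grip collagens, laminins or proteins that carry the short Arg-Gly-Asp (RGD) motif, such as fibronectin, osteopontin and vitronectin. Inside the cell they anchor the actin cytoskeleton through talin, vinculin, filamin and the integrin-linked kinase complex. Itga1 and Itga11 encode α1 and α11, collagen receptor subunits that pair with β1. Itga7 encodes α7, a laminin receptor subunit of muscle cells, also paired with β1. Itga5, Itga8 and Itgav encode the α5, α8 and αv subunits of RGD receptors. Itgb1, Itgb3 and Itgb5 encode β subunits, of which β3 and β5 pair with αv. Itgbl1 encodes integrin beta-like 1, a secreted protein that resembles a β subunit but is not a receptor chain.

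There were 333, 1689, 3001 and 1138 cell barcodes on days 0, 3, 7 and 14, with from 2672722 to 27973418 UMIs per library. Some barcodes occurred in 2 libraries: days 0 and 3 shared 152, days 7 and 14 shared 64, and days 3 and 7 shared 1. In 214 of these pairs the barcode held under 10% of the UMIs of its counterpart, and these shallow copies were set aside before clustering. The 5409 cells kept fell into 28 clusters, and 773 cells (14.3%) stayed unnamed, among them 165 cells of 2 clusters led by cell cycle genes. Names rest on marker genes alone, and no cluster was formed with the integrin genes. Fibroblast-like cells numbered 234, 103, 208 and 540 on days 0, 3, 7 and 14, and all 10 fibroblast markers were above 50 CPM on each day, where CPM are UMIs of a gene per 1000000 UMIs of the class in a library. Smooth muscle-like cells numbered 12, 93, 67 and 80, with 10 or 11 of 11 markers above 50 CPM. Endothelial-like cells numbered 6, 40, 58 and 18, and monocyte/macrophage-like cells numbered 4, 430, 827 and 155. In endothelial-like cells the summed level of smooth muscle markers ran from 267 to 1099 CPM, beside 4169 to 24129 CPM of their own markers. Endothelial-like cells of day 14 also held 5768 CPM of monocyte/macrophage markers, beside 6750 CPM of their own.

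Since UMI capture differs between transcripts, levels are compared between classes and days for the same gene and not between genes. A gene was called higher or lower when its ratio was at least 2 or at most 0.5 and the interval of the ratio left out 1, among genes with at least 20 UMIs over both groups.

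Among the collagen receptor genes, Itga1 was found in several classes and Itga11 almost only in fibroblast-like cells. Itga1 stood in smooth muscle-like cells at 341 CPM (236 to 477) on day 0, 87.9 CPM (77.1 to 99.7) on day 3, 147 CPM (127 to 170) on day 7 and 162 CPM (142 to 185) on day 14. The day 0 level lay above those of the later days and day 3 was the lowest. In fibroblast-like cells Itga1 was at 35.9 CPM (28.5 to 44.7), 15.2 CPM (11.6 to 19.7), 46.7 CPM (40.8 to 53.3) and 73.1 CPM (67.6 to 78.9) on days 0, 3, 7 and 14, so that it too was lowest on day 3 but was highest on day 14. Endothelial-like cells of day 7 held 303 CPM (266 to 344) of Itga1, above the smooth muscle-like level of that day. T cell-like cells held 44.7, 48.0 and 67.7 CPM on days 3, 7 and 14.

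Itga11 reached 4.49 CPM (2.15 to 8.26) in fibroblast-like cells on day 0 and 2.84 CPM (1.42 to 5.08) on day 3. It reached 17.8 CPM (14.2 to 22) on day 7 and 29.5 CPM (26.0 to 33.3) on day 14. The intervals of days 0 and 3 overlapped, and both lay below those of days 7 and 14. Smooth muscle-like cells held 0, 3, 1 and 12 Itga11 UMIs on days 0, 3, 7 and 14. The 12 of day 14 lay in a cluster led by Myh11 and Tagln, at 8.92 CPM (4.61 to 15.6). That interval overlapped those of fibroblast-like cells on days 0 and 3. Fibroblast-like cells contributed from 78.6% to 100% of all Itga11 UMIs of the cells kept, with day 3 the lowest share, from 11 fibroblast-like UMIs.

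The laminin receptor gene Itga7 was nearly confined to smooth muscle-like cells. Its level there was 221 CPM (138 to 335) on day 0, 60.3 CPM (51.4 to 70.2) on day 3, 61.2 CPM (48.2 to 76.6) on day 7 and 79.3 CPM (65 to 95.9) on day 14. Day 0 was the highest, and the intervals of the later days overlapped one another. Fibroblast-like cells held 1, 1, 4 and 6 Itga7 UMIs on these days. Smooth muscle-like cells held 95.7%, 95.9%, 71.0% and 94.7% of the Itga7 UMIs of the cells kept, and the unnamed cells of day 7 held 17 of them.

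Of the RGD receptor α subunits, Itga8 showed the widest range between classes. Smooth muscle-like cells held 3033 CPM (2701 to 3395) of Itga8 on day 0, 967 CPM (930 to 1004) on day 3, 1296 CPM (1233 to 1361) on day 7 and 1496 CPM (1432 to 1563) on day 14. No 2 of these intervals overlapped, with day 0 highest and day 3 lowest. These cells made up 3.81%, 15.0%, 4.66% and 10.4% of all UMIs of the cells kept on days 0, 3, 7 and 14 but 82.3%, 98.5%, 90.1% and 93.3% of the Itga8 UMIs. Although Itga8 took no part in the clustering, it was among the 10 leading genes by fold of the smooth muscle-like cluster led by Myh11 and Tagln.

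In fibroblast-like cells Itga8 was at 28.3 CPM (21.7 to 36.2), 1.29 CPM (0.419 to 3.01), 10.6 CPM (7.84 to 13.9) and 15.0 CPM (12.5 to 17.7) on days 0, 3, 7 and 14. Among classes that should lack it, neutrophil-like cells held 4.42 CPM (0.912 to 12.9) on day 3 and 13.6 CPM (4.42 to 31.7, from 5 UMIs) on day 7. Monocyte/macrophage-like cells held 3.93 CPM (2.29 to 6.29) and 3.83 CPM (2.60 to 5.43), and T cell-like cells of day 7 held 2.53 CPM (0.928 to 5.5). The fibroblast-like value of day 3 lay at or below these levels and is read as background. That of day 7 lay above those of monocyte/macrophage-like and T cell-like cells, and its interval overlapped that of neutrophil-like cells. After each cell was thinned to 1000 UMIs, 66.7% of smooth muscle-like cells of day 7 held an Itga8 UMI (44 of 66 cells, exact interval 54.0% to 77.8%). The share was 2.66% in fibroblast-like and 0.935% in neutrophil-like cells. Without thinning the 3 shares were 82.1%, 13.9% and 4.2%.

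Itga5, the α subunit of the main fibronectin receptor, was at 271 CPM (179 to 395), 384 CPM (361 to 408), 250 CPM (223 to 279) and 300 CPM (272 to 331) in smooth muscle-like cells on days 0, 3, 7 and 14. In fibroblast-like cells it was at 17.5 CPM (12.5 to 23.9), 99.2 CPM (89.5 to 110), 60.4 CPM (53.6 to 67.9) and 20.4 CPM (17.5 to 23.6). The smooth muscle-like levels stayed within a narrow range, whereas the fibroblast-like level was high on days 3 and 7 and overlapped between days 0 and 14. Endothelial-like cells held 269, 265 and 209 CPM of Itga5 on days 3, 7 and 14, and monocyte/macrophage-like cells held 72.5, 68.3 and 57.5 CPM. A single endothelial-like cell held 45 of the 54 Itga5 UMIs of day 3. The 10 UMIs of day 14 lay in 3 of 18 cells.

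Itgav, whose αv chain pairs with several β subunits, differed less between classes. It was at 68.7, 106, 116 and 76.8 CPM in fibroblast-like cells on days 0, 3, 7 and 14. Smooth muscle-like cells of day 0 held 10 Itgav UMIs (48.2 to 185 CPM), and those of days 3, 7 and 14 held 182, 184 and 119 CPM. Monocyte/macrophage-like cells held 70.9, 68.3 and 76.2 CPM on days 3, 7 and 14. Fibroblast-like cells had their higher Itgav levels on days 3 and 7, and the day 0 interval of smooth muscle-like cells held the levels of all later days.

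Among the β subunits, Itgb1 was found in each class described here. Smooth muscle-like cells held 2210 CPM (1927 to 2522), 1936 CPM (1884 to 1989), 1246 CPM (1184 to 1309) and 1528 CPM (1462 to 1595) on days 0, 3, 7 and 14. Endothelial-like cells held 706, 816 and 878 CPM on days 3, 7 and 14, and a single cell held 66.9% of the day 3 UMIs of Itgb1. Fibroblast-like cells held 411, 422, 513 and 432 CPM on days 0, 3, 7 and 14, a far narrower range than that of smooth muscle-like cells. NK cell-like cells of day 7 held 598 CPM and neutrophil-like cells 131 CPM.

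Itgb3, the partner of αv in the classical vitronectin receptor, was at 90.4 CPM (41.3 to 172), 105 CPM (92.9 to 118), 83.8 CPM (68.4 to 101) and 83.0 CPM (68.4 to 99.9) in smooth muscle-like cells on days 0, 3, 7 and 14. All 4 intervals overlapped. Fibroblast-like cells held 4.04 CPM (1.85 to 7.67), 13.9 CPM (10.5 to 18.2), 12.9 CPM (9.86 to 16.6) and 11.0 CPM (8.96 to 13.4). T cell-like cells held more than that on days 3, 7 and 14, at 23.7, 47.6 and 23.8 CPM. Endothelial-like cells of days 3 and 7 held 179 and 103 CPM, and a single cell held 29 of the 36 UMIs of day 3.

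Itgb5, the other αv partner examined, was shared by smooth muscle-like, fibroblast-like and monocyte/macrophage-like cells and nearly missing from lymphoid classes. It was at 462, 289, 443 and 406 CPM in smooth muscle-like cells and at 323, 151, 261 and 222 CPM in fibroblast-like cells on days 0, 3, 7 and 14. Both classes were lowest on day 3. Monocyte/macrophage-like cells held 129 CPM (119 to 140), 182 CPM (173 to 191) and 232 CPM (206 to 260) on days 3, 7 and 14, and these intervals did not overlap. In the thinned cells of day 7, 129 of 807 monocyte/macrophage-like cells held an Itgb5 UMI (13.5% to 18.7%), beside 15.4% of fibroblast-like, 0.787% of T cell-like and 1.87% of neutrophil-like cells.

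Itgbl1, the secreted relative, was at 633 CPM (600 to 667), 138 CPM (127 to 151), 377 CPM (359 to 395) and 424 CPM (411 to 438) in fibroblast-like cells on days 0, 3, 7 and 14. No 2 of these intervals overlapped. The smooth muscle-like level was 191, 187, 284 and 291 CPM. Monocyte/macrophage-like cells held at most 4.67 CPM. The fibroblast-like level was below the smooth muscle-like level on day 3 and above it on the other days. On day 3 this order differed between fibroblast-like clusters. A cluster led by Saa3 and Prg4 held 56.0 CPM, below the smooth muscle-like level, and a cluster led by Eln and Cpxm2 held 342 CPM, above it.

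**Figure D1:**
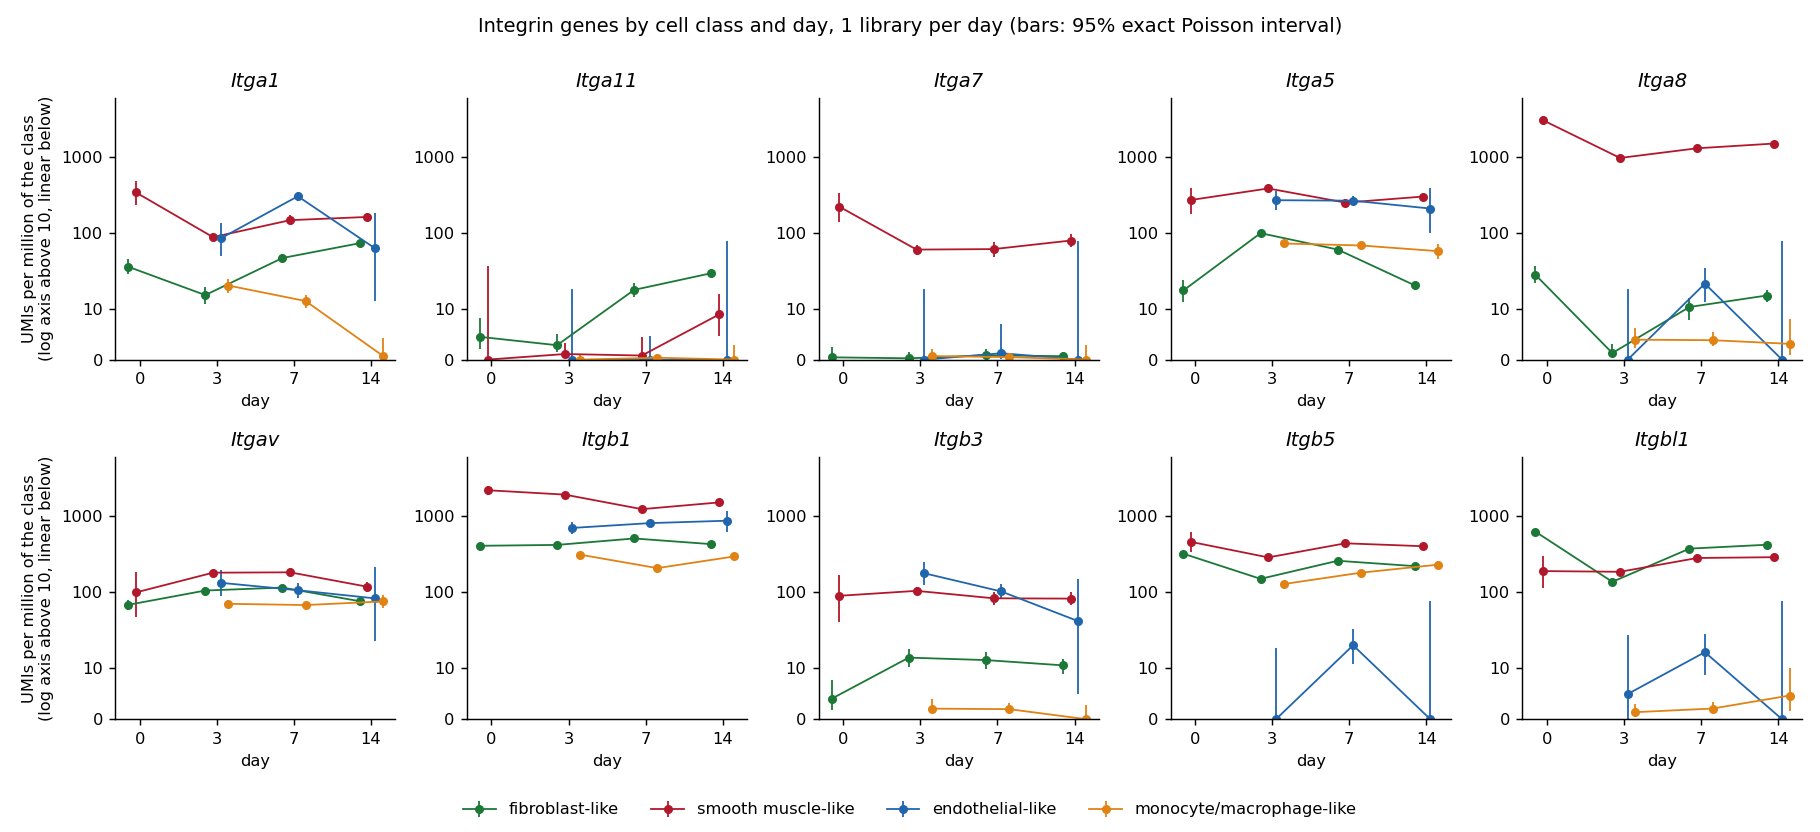
Level of each of the 10 genes (CPM, on an axis that is logarithmic above 10 and linear below) against day (0, 3, 7 and 14), in 4 classes: fibroblast-like, smooth muscle-like, endothelial-like, monocyte/macrophage-like. Points are 1 library each and bars are 95% exact Poisson intervals. Itga8 in smooth muscle-like cells runs from 3033 CPM on day 0 to 967 CPM on day 3, and Itga11 in fibroblast-like cells reaches 29.5 CPM on day 14.

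**Figure D2:**
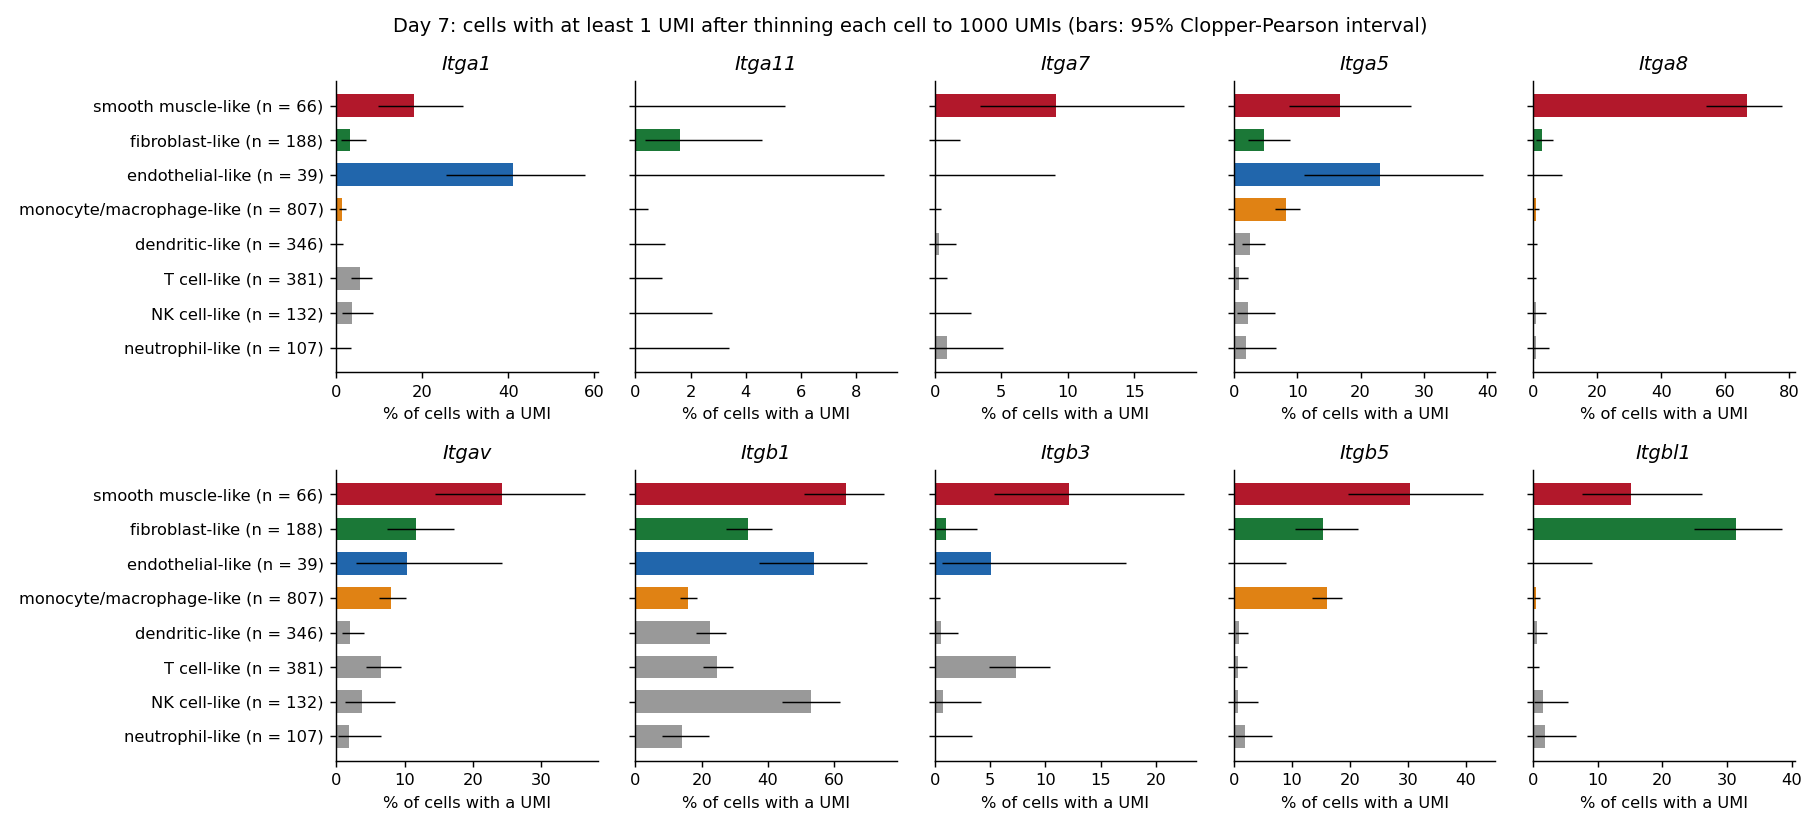
Percent of cells with at least 1 UMI of each gene on day 7, after each cell was thinned to 1000 UMIs and shallower cells were left out, by cell class with the number of cells. Bars are shares and lines are 95% Clopper-Pearson intervals. Itga8 was seen in 66.7% of smooth muscle-like cells and Itga1 in 41.0% of endothelial-like cells, while Itgb5 was seen in 15.4% of fibroblast-like cells.

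The first comparison asked how the genes differed in fibroblast-like cells after injury. Between day 0 and day 3, 9 of the 10 genes had enough UMIs. Itga5 and Itgb3 were called higher and Itga1, Itga8, Itgb5 and Itgbl1 lower. That is 2 higher and 4 lower of 9, beside 7.99% higher and 10.4% lower among the 10601 genes compared in the class, and the median log2 ratio was -0.66 for the 9 genes and -0.12 for all. The ratio of day 3 to day 0 was 5.66 (4.07 to 8.09) for Itga5 and 3.45 (1.69 to 7.95) for Itgb3. It was 0.0457 (0.0143 to 0.112) for Itga8, from 5 UMIs against 63. The Itgb3 ratio came from 54 UMIs against 9, with 14 of the 54 in 1 cell. Every Itgb3 ratio to day 0 in this class rested on these 9 UMIs. Itgbl1 had a ratio of 0.219 (0.198 to 0.242), Itga1 of 0.424 (0.298 to 0.601) and Itgb5 of 0.468 (0.419 to 0.523). Itgav at 1.55, Itgb1 at 1.03 and Itga11 at 0.633 were not called.

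Which cells made up the class differed between these days. On day 0, 154 of the 234 fibroblast-like cells belonged to a cluster led by Rbp4 and AI507597, and on day 3, 44 of 103 belonged to a cluster led by Saa3 and Prg4 and 36 to a cluster led by Eln and Cpxm2. The median cell held 8119.5 UMIs on day 0 and 32393 UMIs on day 3. Without cells of over 30000 UMIs, 2 genes were called, Itga5 at 3.36 and Itga8. Itgb3 of day 3 was then at 1.90 CPM, below its day 0 level rather than above it, with UMIs under the minimum. The higher Itgb3 level of day 3 was thus not seen outside the deep cells. Itga1 was then at 0.847, Itgb5 at 0.766 and Itgbl1 at 0.502. Without the cluster led by Saa3 and Prg4, 3 genes were called, and Itgbl1 stood at 0.525, Itga1 at 0.602 and Itgb5 at 0.806.

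The barcodes shared with another library also bore on this comparison. Of the day 0 fibroblast-like cells, 94 had such a barcode, with a median of 16581.5 UMIs, and 140 did not, with a median of 3802.5 UMIs. Itga8 was at 35.7 CPM in the former and 9.53 CPM in the latter, from 57 and 6 UMIs, whereas Itgbl1 was at 634 and 630 CPM and Itga1 at 36.9 and 33.3 CPM. With every shared barcode left out, 3 genes were called, namely Itga5, Itgb3 and Itgbl1, and Itga8 had too few UMIs. With the shallow copies kept in, all 6 were called.

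For day 7 against day 0, Itga5, Itga11 and Itgb3 were called higher and Itga8 lower. These are 3 higher and 1 lower of 9, beside 9.41% higher and 7.86% lower among 10965 genes. The ratios were 3.45 (2.46 to 4.96) for Itga5, 3.95 (2.05 to 8.55) for Itga11, 3.19 (1.58 to 7.31) for Itgb3 and 0.374 (0.252 to 0.550) for Itga8. Itga8 stood at 1.08 with every shared barcode left out and at 1.12 with the mean of the CPM of each cell, so its direction on day 7 was not held. Itgb3 was not called without the cluster led by Saa3 and Prg4, at 2.09, or with every shared barcode left out, at 3.8, and Itga11 was not called with each library clustered on its own, at 2.22. Itgb5 at 0.808 and Itgbl1 at 0.595 were nearer to their day 0 levels than on day 3.

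For day 14 against day 0, Itga1, Itga11 and Itgb3 were called higher and no gene lower. These are 3 higher of 9, beside 7.41% higher and 4.17% lower among 11643 genes. The ratios were 2.03 (1.61 to 2.60) for Itga1, 6.57 (3.52 to 13.9) for Itga11 and 2.73 (1.38 to 6.15) for Itgb3. Itga8 was not called, at 0.529 (0.389 to 0.726), and stood at 3.04 with each library clustered on its own. Itga5 was at 1.16 (0.820 to 1.69), so the high level of days 3 and 7 was no longer seen. Itga11 and Itga1 were called on day 14 under every alternative processing tried, with ratios of 4.81 to 18.5 and 2.02 to 3.41. Itgb3 was not called with each library clustered on its own, at 1.5, or with every shared barcode left out, at 3.46.

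All of these ratios share the day 0 library, so the later days were also set against day 3, a comparison added after the first results were seen. From day 3 to day 7, Itga1, Itga8, Itga11 and Itgbl1 were called higher, 4 of 9 genes beside 6.23% higher and 2.56% lower among 11128. From day 3 to day 14 the same 4 were called higher and Itga5 lower, beside 11.0% higher and 5.23% lower among 11816. Itga11 had ratios of 6.25 (3.32 to 13.0) and 10.4 (5.71 to 21.1), Itga1 of 3.06 (2.29 to 4.16) and 4.80 (3.67 to 6.37), and Itgbl1 of 2.72 (2.47 to 3.00) and 3.06 (2.80 to 3.36). Itga5 had a ratio of 0.609 (0.521 to 0.712) on day 7 and 0.205 (0.171 to 0.246) on day 14. Itga8 had ratios of 8.18 and 11.6, but against a day 3 level read as background, and 0.248 and 0.235 under the stricter cell filter. Under the alternatives, which were run after these calls were seen, Itga11 was called on both days and Itga1 and Itga5 on day 14 in each that gave a value. Itgbl1 was not called on either day without cells of over 30000 UMIs, at 1.17 and 1.34, or without the cluster led by Saa3 and Prg4, at 1.39 and 1.28. Itga1 on day 7 was not called at resolution 2, at 1.85, or under the stricter filter, at 1.65.

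**Figure D3:**
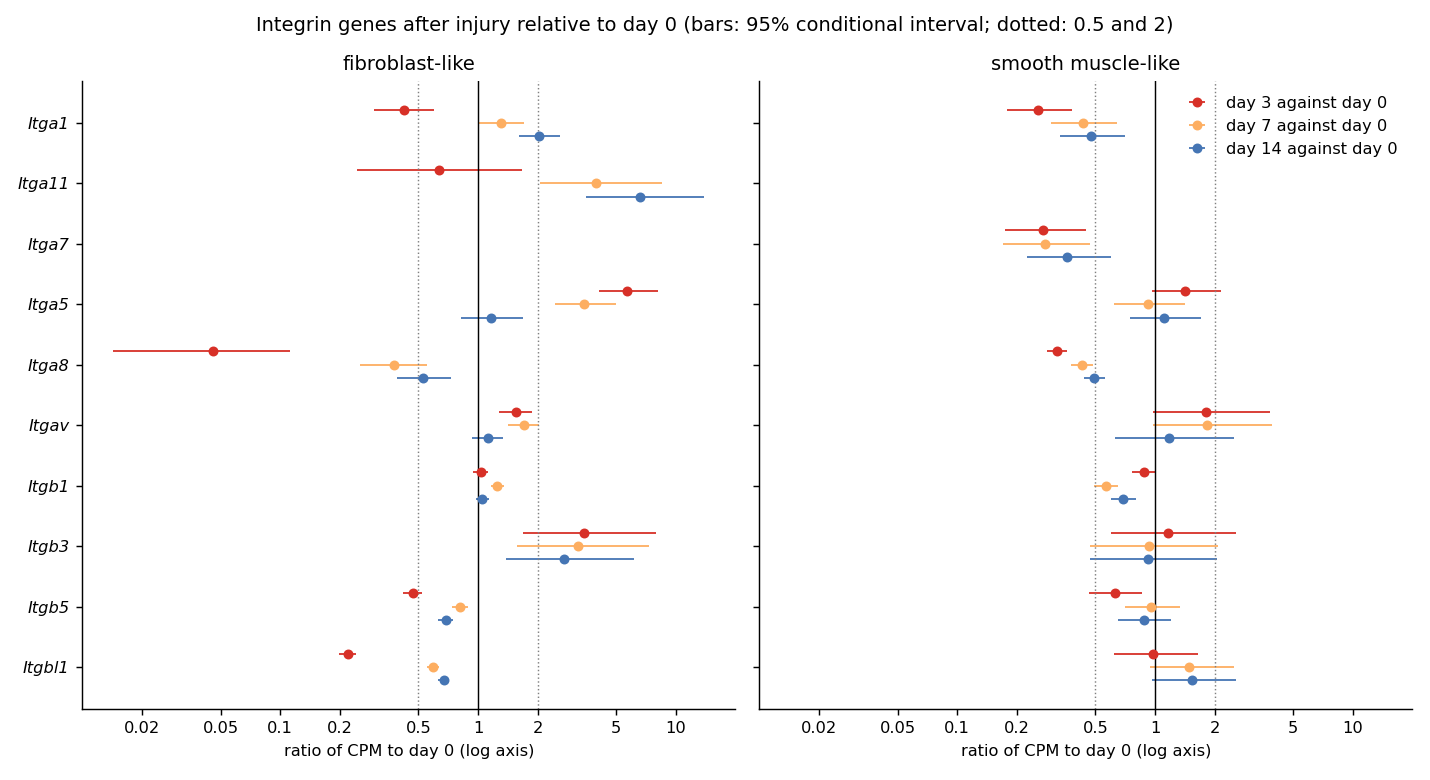
Ratio of CPM to day 0 (log axis) for each gene with at least 20 UMIs over both days, in fibroblast-like and smooth muscle-like cells. Points are ratios of 2 libraries, bars are 95% conditional intervals and dotted lines mark 0.5 and 2. Itga5 in fibroblast-like cells lies at 5.66, 3.45 and 1.16 on days 3, 7 and 14, and Itga7 in smooth muscle-like cells lies at 0.273, 0.277 and 0.359.

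The fibroblast-like clusters differed in their integrin genes on the same day. These values are a description, since the clusters were formed from the same cells. Itga11 was highest in the cluster led by C1qtnf3 and Col2a1, at 41.0 CPM on day 7 and 50.8 CPM on day 14, where the cluster led by Eln and Cpxm2 held 5.51 and 13.0 CPM. Of the 540 fibroblast-like cells of day 14, 195 belonged to the former and 224 to the latter. Itga1 was the other way round on these days, at 42.0 and 48.1 CPM in the former and 62.6 and 96.3 CPM in the latter.

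Itga5 was highest in the cluster led by Saa3 and Prg4, at 116 CPM on day 3 and 128 CPM on day 7. In the cluster led by Eln and Cpxm2 it was at 54.9, 32.3 and 15.7 CPM on days 3, 7 and 14, and in the cluster led by C1qtnf3 and Col2a1 at 59.4 and 26.1 CPM on days 7 and 14. In the cluster led by Rbp4 and AI507597 it was at 14.9 CPM on day 0 and 14.6 CPM on day 14, and in that led by Gsn and Clec3b at 29.3, 69.4 and 15.3 CPM on days 0, 7 and 14, from 3 to 11 UMIs a day. Lower Itga5 on later days was thus seen within the Eln and Cpxm2 and the C1qtnf3 and Col2a1 clusters. Within the cluster led by Eln and Cpxm2, Itga1 was at 22.5, 62.6 and 96.3 CPM on days 3, 7 and 14, so that its order by day was also seen within a cluster. Itgbl1 in that cluster was at 342, 503 and 521 CPM, beside 56.0 and 80.9 CPM in the cluster led by Saa3 and Prg4 on days 3 and 7.

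All 63 Itga8 UMIs of day 0 fibroblast-like cells lay in the cluster led by Rbp4 and AI507597, at 39.0 CPM, and its 28 cells of day 14 held 36.5 CPM. Day 3 had 3 cells of this cluster and day 7 had 1. It had the highest Itgbl1 level, at 748 CPM on day 0 and 674 CPM on day 14, and no Itgb3 UMI on either day. The shallow cluster led by Gsn and Clec3b, with a median of 1474 UMIs per cell, held 18.7 CPM of Itgb3 on day 0 and no Itga8 UMI. Its Itgb3 level was 15.4 and 20.4 CPM on days 7 and 14, from 2 and 4 UMIs. Itgb3 was at 4.9, 4.33 and 2.85 CPM in the cluster led by Eln and Cpxm2 on days 3, 7 and 14. It was at 14.0 and 28.2 CPM in that led by Saa3 and Prg4 on days 3 and 7. The cluster led by C1qtnf3 and Col2a1 held 18.4 and 20.2 CPM on days 7 and 14.

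**Figure D4:**
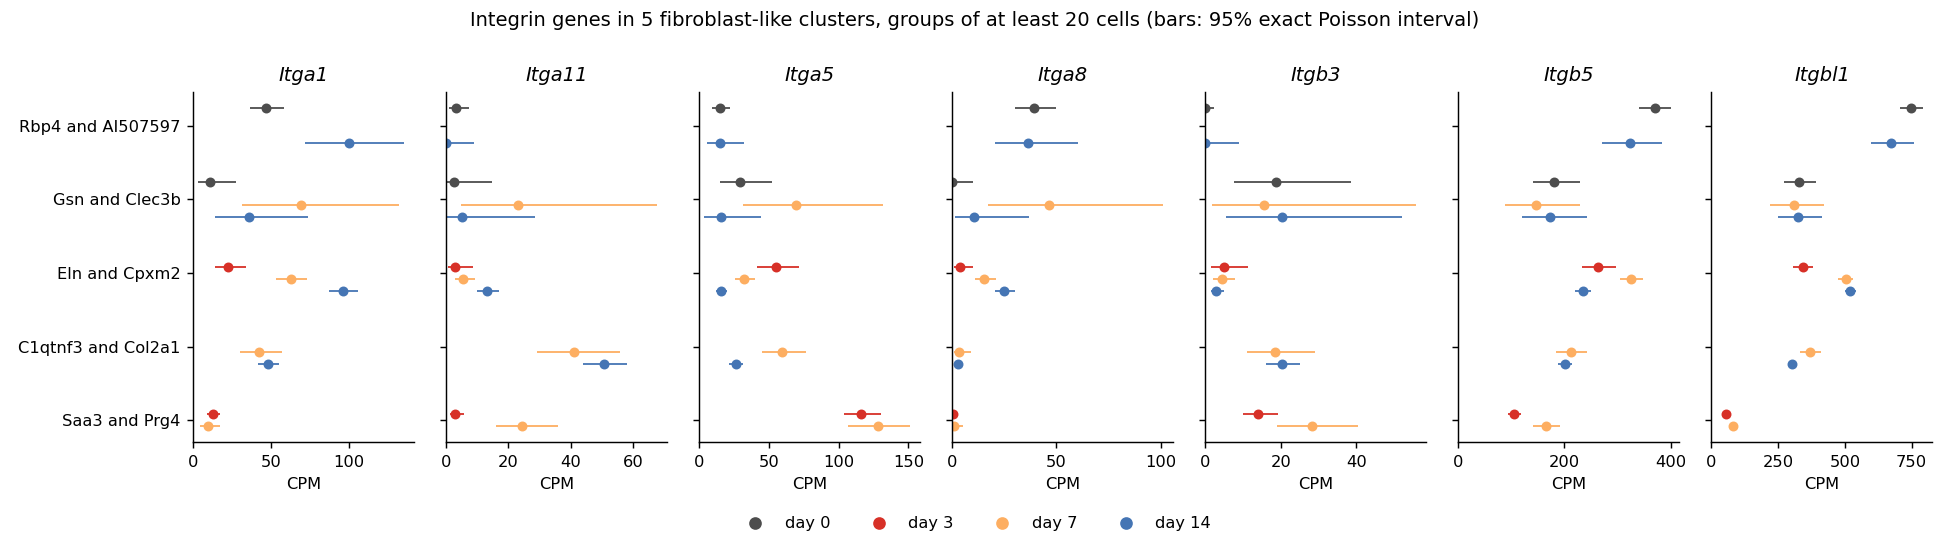
CPM of 7 of the genes in 5 fibroblast-like clusters, named by their leading genes, for days with at least 20 cells. Points are levels and bars are 95% exact Poisson intervals. Itga11 lies at 50.8 CPM in the C1qtnf3 and Col2a1 cluster on day 14, and Itga5 lies at 116 and 128 CPM in the Saa3 and Prg4 cluster on days 3 and 7.

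The second comparison asked the same of smooth muscle-like cells, and its day 0 side rested on 12 cells with 99565 UMIs. The deepest of them held 21.3% of these UMIs and 27.8% of the Itga8 UMIs, and 8 of the 12 held any Itga8 UMI. The cluster led by Myh11 and Tagln held 7 of the 12 cells, and 68, 59 and 76 of the cells of days 3, 7 and 14, while the others belonged to a shallow cluster led by Hspb7 and Tpm2. Itga1, Itga7 and Itga8 were called lower on each later day and no gene was called higher, with losses under alternatives for Itga1 and Itga8. For day 3 against day 0, 3 of 9 genes were lower and 0 higher, beside 7.35% lower and 3.95% higher among 9182 genes. The ratios were 0.257 (0.179 to 0.380) for Itga1, 0.273 (0.174 to 0.447) for Itga7 and 0.319 (0.283 to 0.360) for Itga8. The median log2 ratio was -0.19 for the 9 genes and -0.25 for all genes compared.

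For day 7 against day 0 the ratios were 0.432 (0.298 to 0.642) for Itga1, 0.277 (0.170 to 0.468) for Itga7 and 0.427 (0.378 to 0.485) for Itga8, 3 lower of 9 beside 5.29% lower and 3.84% higher among 7393 genes. For day 14 against day 0 they were 0.476 (0.330 to 0.704), 0.359 (0.225 to 0.597) and 0.493 (0.437 to 0.559) in the same order, 3 lower of 9 beside 4.62% lower and 2.23% higher among 7266 genes. Itga7 was called lower on each of these days under every alternative that gave a value. On day 7 it fell below the alternative minimum of 100 UMIs, from 76 UMIs against 22. Itga1 was called under every alternative on day 3, but not in 4 of 16 on day 7 and 3 of 16 on day 14, where it reached 0.836 and 0.762. These highest values came from the mean of the CPM of each cell, with which Itgav at 3.31 and 2.1 and Itgbl1 at 2.47 and 2.79 were called higher on days 7 and 14. Itga8 ranged from 0.303 to 0.648 on day 3, from 0.226 to 0.751 on day 7 and from 0.478 to 0.887 on day 14, always below 1, and on day 14 it was called in 7 of 16 alternatives.

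Itgb1, the β partner of α1, α7 and α8, was not called, with ratios to day 0 of 0.876 (0.766 to 1.01) on day 3, 0.564 (0.489 to 0.652) on day 7 and 0.691 (0.601 to 0.798) on day 14. Itga5, Itgav, Itgb3, Itgb5 and Itgbl1 were not called on any day, with ratios from 0.625 to 1.84. Itga11 had too few UMIs.

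Since day 0 held few smooth muscle-like cells, days 7 and 14 were also set against day 3. No gene of the 9 was called on day 7, beside 5.0% higher and 2.9% lower among 10029 genes, or on day 14, beside 5.84% higher and 7.63% lower among 10037 genes. The highest ratios were 1.68 (1.38 to 2.04) and 1.85 (1.53 to 2.23) for Itga1 on days 7 and 14. Itga8 was at 1.34 (1.26 to 1.43) and 1.55 (1.46 to 1.64), and Itgb1 was at 0.643 (0.608 to 0.681) on day 7. The interval of each of these left out 1, but none was beyond 2 or 0.5. Over the alternatives Itga8 ran from 0.715 to 1.44 on day 7 and from 0.828 to 1.63 on day 14, so no direction was held for Itga8.

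**Figure D5:**
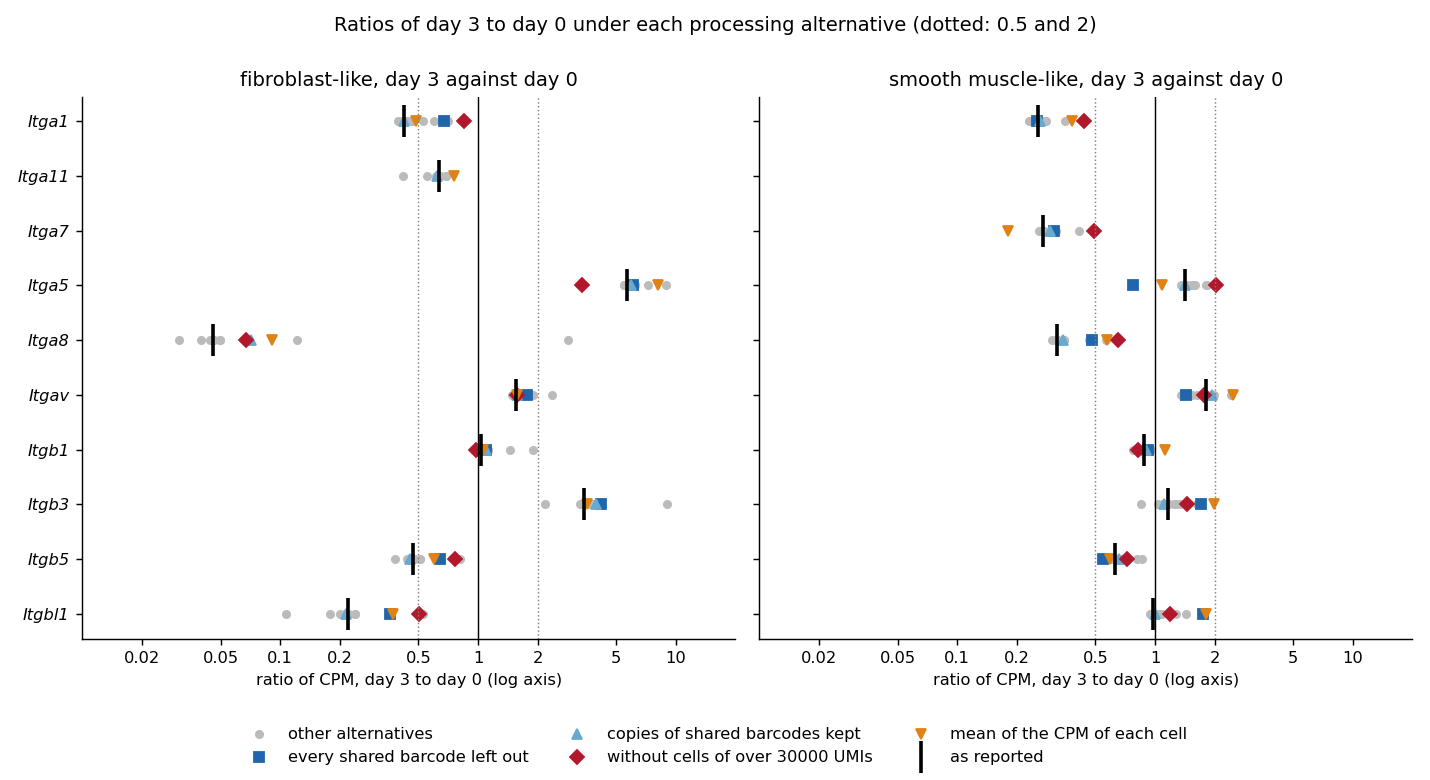
Ratio of CPM of day 3 to day 0 (log axis) under each processing alternative, in fibroblast-like and smooth muscle-like cells. Black bars are the values as reported, points are alternatives and dotted lines mark 0.5 and 2. Itga5 in fibroblast-like cells stays above 3 and Itga7 in smooth muscle-like cells stays below 0.5, whereas Itga8 in fibroblast-like cells has an alternative at 2.85.

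In endothelial-like cells only days 3, 7 and 14 could be compared. For day 7 against day 3, Itga1 was called higher at 3.58 (2.19 to 6.25), 1 of 5 genes beside 9.84% higher and 6.7% lower among 6556 genes. Its 17 UMIs of day 3 lay in 2 of 40 cells and its 240 UMIs of day 7 in 27 of 58 cells. The deepest cell of day 3 held 38.7% of the UMIs of the class and 80.6% of its Itgb3 UMIs. Itgb1 was at 1.16 (0.962 to 1.40) and Itga5 at 0.987 (0.728 to 1.36) on day 7, but at 2.32 and 3.60 without the cell with most UMIs of the gene on each day, so both ratios moved with single cells. For day 14 against day 3, Itgb3 was called lower at 0.233 (0.0272 to 0.907) from 2 against 36 UMIs, and not called with the copies of shared barcodes kept or with other scalings. It was 1 of 5 genes called, beside 20.4% lower and 10.7% higher among 2181 genes. Summed monocyte/macrophage markers were at 189 CPM in the day 3 cells and 5768 CPM in the 18 cells of day 14, and their part in the result was not tested.

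In monocyte/macrophage-like cells no gene of 8 was called on day 7 against day 3, beside 4.97% higher and 3.9% lower among 10843 genes. Itgb5 was at 1.41 (1.27 to 1.55) and Itgb1 at 0.668 (0.621 to 0.718). For day 14 against day 3, Itga1 was called lower at 0.0383 (0.000958 to 0.219), from 1 UMI against 88, 1 of 6 genes beside 8.29% lower and 5.41% higher among 9676 genes. Itgb5 was at 1.79 (1.55 to 2.07), below the threshold as reported but at 2.01 and 2.02 under other scalings. The clusters that made up the class differed between days: 265 of 430 cells of day 3 belonged to the cluster led by Pf4 and Ccl6 and 129 of 155 cells of day 14 to the cluster led by Ms4a7 and C1qa. Itga1 over all days was at 23.7 CPM (19 to 29.3) in the former and 1.45 CPM (0.625 to 2.85) in the latter. The level of the former was not particular to it. Itga1 was at 21.0 CPM (16.9 to 25.8) in the cluster led by Plac8 and Cxcl9. In the cluster led by Hes1 and Itgal it was at 25.9 CPM (11.2 to 51.0), from 8 UMIs. Summed platelet markers were at 99.5, 20.6 and 2.33 CPM on days 3, 7 and 14 in this class, with 3 of 4 markers at 0, and summed erythroid markers at 682, 104 and 8.55 CPM, and their part in the Itga1 result was not tested.

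The ligands of these receptors were described from lists of 10 collagen, 6 laminin and 18 RGD-type and other genes. In fibroblast-like cells 5, 8 and 7 of 10 collagen genes were called higher on days 3, 7 and 14 against day 0, with 1 lower on day 3. Among all genes compared 7.99%, 9.41% and 7.41% were higher and 10.4%, 7.86% and 4.17% lower. Col3a1, the chain of collagen III, was at 3585 CPM on day 0 and 19676, 28468 and 26510 CPM on days 3, 7 and 14. Of the RGD-type and other ligands, 6 of 15, 8 of 15 and 8 of 17 were called higher, and 2, 0 and 1 lower. Tnc, encoding tenascin-C, had no UMI on day 0 and was at least 22.4-fold, 211-fold and 40.5-fold higher on days 3, 7 and 14. Postn, encoding periostin, was at 177, 509, 2587 and 2016 CPM on days 0, 3, 7 and 14. Of the 6 laminin genes 1, 2 and 2 were called higher and 2, 1 and 0 lower. Lama2, a laminin chain of basement membranes, was lower on day 3 at a ratio of 0.237 (0.204 to 0.275).

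In smooth muscle-like cells 4, 5 and 4 of 10 collagen genes were called higher on days 3, 7 and 14 and none lower. Among all genes compared 3.95%, 3.84% and 2.23% were higher and 7.35%, 5.29% and 4.62% lower. Col1a1, a chain of collagen I, was at 402 CPM on day 0 and 2777, 4266 and 2282 CPM afterwards. Fn1, encoding fibronectin, the ligand of α5β1, was at 341 CPM on day 0 and 2873, 3261 and 1953 CPM on days 3, 7 and 14, ratios of 8.41 (6.02 to 12.2), 9.55 (6.82 to 13.8) and 5.72 (4.08 to 8.28). Spp1, encoding osteopontin, had no UMI on day 0 and stood at 1321, 671 and 0.742 CPM on days 3, 7 and 14. Npnt, encoding nephronectin, a ligand of α8β1, was at 1828, 995, 956 and 1302 CPM in smooth muscle-like cells and at most 2.75 CPM in fibroblast-like cells. The gene of the α8 ligand and that of α8 were thus found in the same class. Of the RGD-type and other ligands, 4, 5 and 3 of 16 were called higher on days 3, 7 and 14 and 0, 0 and 1 lower, and of the laminins 1 of 6, 1 of 6 and 0 of 5 higher and 2, 1 and 1 lower. Summed fibroblast markers were at 1476, 955, 2950 and 2278 CPM in smooth muscle-like cells on days 0, 3, 7 and 14, beside 19505 to 38260 CPM of their own markers, and their part in the collagen values was not tested.

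Of the 32 genes of the adhesion complex inside the cell, 4, 5 and 1 of 30 were called higher in fibroblast-like cells on days 3, 7 and 14 and 1 lower on each day, beside 7.99%, 9.41% and 7.41% higher and 10.4%, 7.86% and 4.17% lower among all genes compared. Actn1, encoding α-actinin-1, was at 108 CPM on day 0 and 250 and 410 CPM on days 3 and 7. In smooth muscle-like cells 5 of 30, 4 of 28 and 0 of 27 were lower on days 3, 7 and 14 and none higher, beside 7.35%, 5.29% and 4.62% lower among all genes compared. Flna, encoding filamin A, was at 3375 CPM on day 0 and 1547 and 1556 CPM on days 3 and 7, and Lims2 had ratios of 0.293 and 0.382. The other integrin subunits called in smooth muscle-like cells on day 3 were Itgb8 at 0.0640 (0.0251 to 0.176) and Itga9 at 0.355 (0.271 to 0.474), both lower, and Itga3 at 2.44 (1.18 to 6.11), higher. They were 3 of 6 such genes, and 2 of 5 and 1 of 5 were lower and none higher on days 7 and 14. In fibroblast-like cells 2 of 4, 3 of 7 and 2 of 5 were higher on days 3, 7 and 14, and 1, 0 and 0 lower, among them Itga2 at ratios of 4.03, 5.65 and 4.06.

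Subunits known to pair were found together in single smooth muscle-like cells. Itga8 and Itgb1 were both seen in 70 of 93, 52 of 67 and 71 of 80 cells on days 3, 7 and 14, or 75.3%, 77.6% and 88.8%, beside 69.4%, 76.0% and 87.9% from the product of the single shares. Itgav and Itgb3 were both seen in 59.1%, 49.3% and 46.2%, beside products of 42.2%, 40.9% and 39.6%. After thinning to 1000 UMIs, Itgav and Itgb3 were both seen in 3, 4 and 0 cells, too few to compare. Depth differed between the cells, and its part in the unthinned shares was not tested.

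Finally, the genes whose levels ran most alike to each integrin gene were named over 24 class-by-day groups, from the Pearson correlation of log2(CPM + 10). The groups share libraries and depth, so the values are a description. Itga8 ran with Sox6, Dtna and Gm13889 (r = 0.98 each) and Itga7 with Akap6 and Gm13889 (r = 0.99 each). Itgbl1 ran with Rbms3, Loxl1 and Ogn (r = 0.98 each), and Itga11 with Adamts17, Kcp and Fap (r = 0.95, 0.95 and 0.94). Itga5 ran with Cav2, Vcl and Bnip2 (r = 0.90, 0.88 and 0.88), and Itgb5 with Lrp1, Nacc2 and Ldlrad3 (r = 0.91, 0.90 and 0.90). Itga1, Itgav, Itgb1 and Itgb3 had their closest genes at r = 0.89 (Pitpnm2), 0.91 (Kif1c), 0.90 (Myl6) and 0.89 (Pitpnm2).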

How the data were processed

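Per the file headers, the deposited matrices hold raw counts of UMIs per gene and barcode made with Cell Ranger 3.0.2. The methods give a different version. The build that the study's methods name for these reads carries the name of a human assembly, so no coordinates are printed. The kit counts 3′ ends. Barcodes with under 200 genes or over 20% mitochondrial UMIs were removed (453), with doublets at 0.8% per 1000 barcodes (102; Scrublet's own threshold marked 18). Median UMIs per kept cell were 7959, 5460.5, 6367 and 10776.5 on days 0, 3, 7 and 14. Cells were scaled to 10000 UMIs, reduced with 2000 variable genes, 30 components and 15 neighbours, and clustered by Leiden at resolution 1 (scanpy 1.11.5, leidenalg 0.10.2, Python 3.11.15). A cluster was named by at least 3 markers of a class. UMIs were summed per class and library. Intervals were exact Poisson, conditional binomial or Clopper-Pearson (scipy 1.17.1), and the floor for a class at 0 was 3 counts. The rule was tried on simulated data for day 3 against day 0. The simulated counts varied by counting error only, as the intervals assume. All changed genes were set beyond the ratios of 2 and 0.5, so recovery near these thresholds was not simulated. It recovered 97.9% of changed genes and called 0.847% of unchanged ones for fibroblast-like cells (10583 genes). For smooth muscle-like cells these rates were 75.7% and 2.03% (8974 genes). The rates hold for the simulated data only. With 1 library per day, spread between libraries could not be estimated, so they are not error rates of the calls reported here. TMM factors (edgeR 4.0.16) and size factors (DESeq2 1.42.0) served as alternative scalings only. From each list, the called genes eligible for naming in a comparison were the 4 with the largest change, plus partners of the integrin genes such as Npnt, and for likeness the 3 highest correlations, of which 1 gene is not reported here. The values shown for cell clusters were chosen after they were seen. Classes were rebuilt from markers, and cell names may therefore differ from those of the study. The genes and lists were chosen with earlier results of these data known. The handling of shared barcodes, the leaving out of cell cycle clusters and the 2 comparisons of fibroblast-like cells with day 3 were chosen after the data were seen.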

Additional observations from a re-analysis of the deposited data

Results flagged for a closer look

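Itga1 differed in direction between classes in 2 comparisons, and neither difference was tested, since each day was 1 library. For day 14 against day 0 its ratio was 2.03 in fibroblast-like cells and 0.476 in smooth muscle-like cells. For day 14 against day 3 it was 4.80 in fibroblast-like cells and 0.0383 in monocyte/macrophage-like cells, the latter from 1 UMI against 88.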

How the results depend on the processing

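Of 34 called ratios, 15 were called under every alternative that gave a value. An alternative gave no value where the gene fell below its UMI minimum or no ratio could be formed. Among the 15 were Itga5 in fibroblast-like cells on days 3 and 7 against day 0 (3.36 to 8.93 and 2.33 to 5.77) and Itga7 in smooth muscle-like cells. Itgb3 in fibroblast-like cells on day 3 against day 0 was also among them. Without cells of over 30000 UMIs, however, its day 3 level lay below that of day 0, with too few UMIs for a value. Of 80 ratios not called, 25 were called under an alternative other than a ratio of 1.5. The following turned, either from a called direction or into a call of the opposite direction. In fibroblast-like cells Itga8 stood at 2.85 on day 3 against day 0, 0.248 on day 7 against day 3 and 0.235 on day 14 against day 3 with a filter of 500 genes and 10% mitochondrial UMIs, where 21 of the 136 cells of the class on day 3 were smooth muscle-like as reported and held 546 Itga8 UMIs. Against day 0 it stood at 1.08 on day 7 with every shared barcode left out, 1.12 with the mean of the CPM of each cell, and 3.04 on day 14 with each library clustered on its own. Itgb3 stood at 6.02 on day 14 against day 3 without cells of over 30000 UMIs. In endothelial-like cells on day 7, Itga5 and Itgav stood at 18 and 6.39 without cells of over 30000 UMIs and at 3.60 and 2.54 without the cell with most UMIs of the gene, and Itga5 and Itgb3 at 8.93 and 5.31 with the mean of the CPM of each cell. On day 14, Itga1 and Itgb3 stood at 11.8 and 2.20 with that mean.

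The number of genes called in fibroblast-like cells on day 3 against day 0 was 6, and 2 without cells of over 30000 UMIs, 3 with every shared barcode left out and 3 without the cluster led by Saa3 and Prg4. On day 7 it was 4, and 2 with each library clustered on its own or a minimum of 100 UMIs. On day 7 against day 3 it was 4, and 2 at resolution 2, without cells of over 30000 UMIs or with a minimum of 100 UMIs. In smooth muscle-like cells against day 0 it was 3, and 1 at resolution 2 on days 7 and 14 and 1 without cells of over 30000 UMIs on day 14. Against day 3 it was 0. On day 7 it was 1 with libraries clustered on their own, without doublet removal, with the stricter filter or with the mean of the CPM of each cell, and 5 at a ratio of 1.5. On day 14 it was 1 without cells of over 30000 UMIs or with no UMI minimum, and 4 at a ratio of 1.5. In endothelial-like cells on day 7 it was 1, and 5 without cells of over 30000 UMIs, 4 without the cell with most UMIs of the gene, 4 with the mean of the CPM of each cell, and 2 with every shared barcode left out, no UMI minimum or a ratio of 1.5. On day 14 it was 1, and 2 with that mean and 0 with copies kept, without that cell, with TMM factors, size factors or a minimum of 100 UMIs. In monocyte/macrophage-like cells on day 7 it was 0, and 1 with that mean or a ratio of 1.5. On day 14 it was 1, and 2 at resolution 2, with TMM factors, size factors or a ratio of 1.5, and 0 with a minimum of 100 UMIs. The cause of these differences was not tested, beyond fewer cells or genes where an alternative leaves them out.

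Placing the cells of the cell cycle clusters by their neighbours kept every count of called genes within 1.5 times its value as reported, but called Itgb1 lower in smooth muscle-like cells on day 7 at 0.457. Shared barcodes, single cells, cell cycle cells and the Saa3 and Prg4 cluster were added as alternatives after the data were seen, as were all alternatives for fibroblast-like cells against day 3. TMM factors moved the log2 ratio by 0.13 in fibroblast-like and smooth muscle-like cells on day 3, by 0.42 in endothelial-like cells on day 14 and by 0.11 and 0.17 in monocyte/macrophage-like cells, and by at most 0.1 in size elsewhere. No paired analysis was possible because each day was 1 library.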
